A study of Drosophila melanogaster with 6 samples.

Results

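The genes described here are the well expressed long noncoding RNA (lncRNA) genes of adult male Drosophila melanogaster infected with a bacterium. They are the genes whose symbol in the dm6 annotation starts with lncRNA and whose level, averaged over all 6 libraries, was at least 5 FPKM (fragments per kilobase of gene, scaled to each library's reads). The lncRNA CR33942, which the flies were made to overexpress, and roX1 and roX2 were left out by name. This left 164 of the 1797 lncRNA genes in a table of 17558 genes. Another 1630 lncRNA genes had a mean under 5 FPKM, and 120 of those were listed at 0 in every library. The genes were thus chosen by their mean FPKM over both groups, so levels are given as description. Of the 164 genes, 19 had a mean under 5 FPKM in 1 group and entered through the other.

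All flies were adult males taken 12 h after injection of the Gram-positive bacterium M. luteus. The control group (3 libraries) had the strain Gal80ts; Tub-Gal4/P{CaryP}attP40, and the overexpressing group (3 libraries) the strain Gal80ts; Tub> NANPI, where NANPI is the series' name for CR33942. As the labels write it, both carried Gal80ts, a temperature-sensitive repressor of Gal4, and a Gal4 driver under the tubulin promoter, which is active in nearly all cells. Strain and overexpression differ together and cannot be told apart. No label gives an age, the number of flies in a library or whether libraries came from separate pools. The p-values therefore rest on differences between these 6 libraries that may be technical in origin.

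An lncRNA is a transcript that carries no long open reading frame. Many are spliced and carry a poly(A) tail like an mRNA, and in Drosophila many are transcribed in the testis or the nervous system. Some have been described as acting on the gene beside them, some as scaffolds for nuclear bodies, and some as hosts from which small nucleolar RNAs or microRNAs are cut. One of the 164 is both scaffold and host: Hsromega, a heat-inducible gene whose nuclear RNA gathers hnRNP proteins into omega speckles. Most of the 164 genes carry a CR number for a name and no described role.

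Recovered reads came to 17032191 to 19797136 per library, and CR33942 stood at 19.1 ± 0.423 FPKM in control and 568 ± 18.8 in overexpressing libraries (SD, n = 3 each). Overexpressing replicate 2 stood apart from the other two on the second principal component, which held 19.9% of the variance. Testis markers, a male-specific set, had sums of 2925 to 3188 FPKM in control and 2983 to 3265 in overexpressing libraries, with 0 of 10 tested past the threshold. Their levels were uneven: S-Lap1 stood at 683 and 693 FPKM in the control and overexpressing groups. In contrast, aly and can had group means of 3.02 to 3.68 FPKM, and bam, at 1.10 and 0.723 FPKM, was too low to be tested. None of the tested accessory gland (6), gut (5), eye (7), muscle (5) or neuron (5) markers passed limma's test below, beside 2.22% of all genes tested. An unadjusted p under 0.05 was found for 5 of these (3 eye, 1 gut, 1 accessory gland) and no testis marker, beside 15.7% of all genes tested. By voom 1 gut marker passed, beside 3.44% of all genes tested. One fat body marker of 3 (Apoltp) and 1 haemocyte marker of 5 (NimC1) were lower, and each call held in 1 of the 6 fits that left out a library. Summed eye markers were 3064 to 3128 FPKM in control and 3214 to 3599 in overexpressing libraries. Summed fat body markers were 116 to 158 and 77.7 to 114 FPKM. No fat body or eye marker in the table was at 0 in all libraries, and the part of these tissues in the lncRNA values was not tested.

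The 164 genes spanned a wide range of levels, from 5.00 to 268 FPKM with a median of 9.48. Only 15 reached 50 FPKM, 64 lay between 10 and 50, and 85 between 5 and 10. The 10 most abundant held 42.4 to 47.4% of their summed FPKM in each library. They were short genes, with 201 to 21710 nt of exon and a median of 593.5 nt, against 615 nt for all lncRNA genes in the table and 1700 nt for all genes tested. A single exon was annotated for 53.7% of them and for 66.2% of all lncRNA genes. Most lay between genes (61.0%, against 70.5% of all lncRNA genes), and 31.7% lay inside the span of a protein-coding gene, against 20.9%. The chromosome arms held 42 (2L), 35 (3L), 33 (2R), 30 (3R), 23 (X) and 1 (4) of them.

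**Figure D1:**
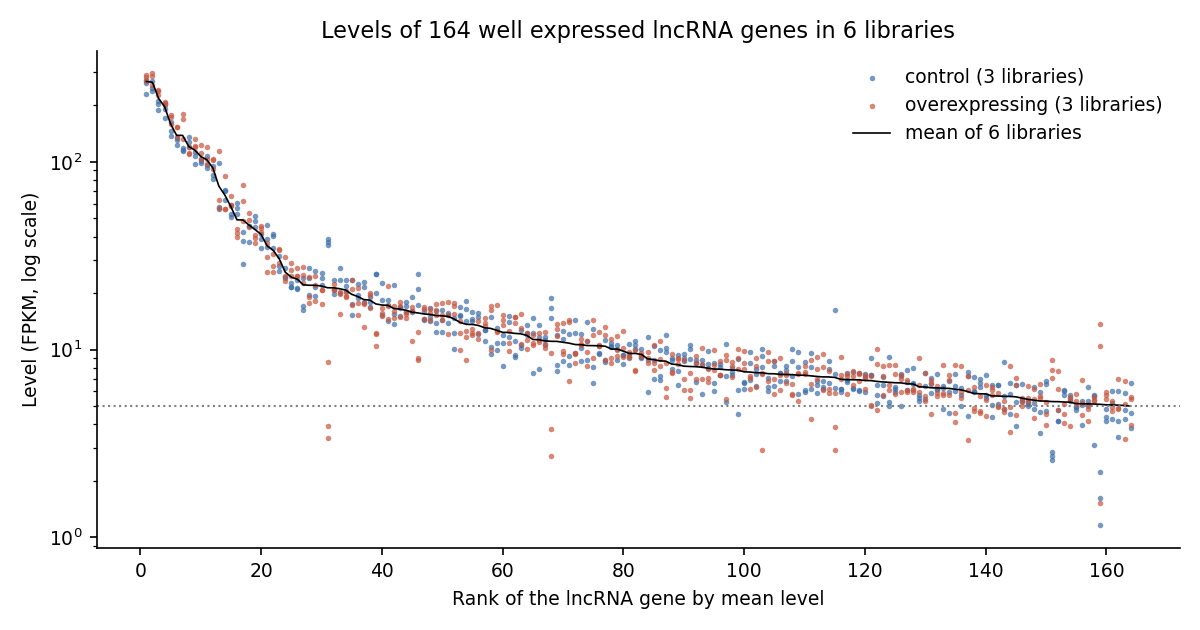
Level of each of the 164 lncRNA genes (FPKM, log axis) against its rank by mean level; points are single libraries, coloured by group, the black line is the mean of the 6 libraries and the dotted line the minimum of 5 FPKM. The means run from 268 FPKM down to 5.00. The groups do not overlap for 49 of the 164 genes, beside 20.7% of all genes tested.

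Together these RNAs held 0.434, 0.454 and 0.472% of the reads in controls and 0.486, 0.486 and 0.497% in overexpressing flies. The means were 0.453 ± 0.0188% and 0.490 ± 0.00617% (SD, n = 3 each), with no test of the difference. Of these reads 44.3 to 49.8% came from just 2 genes, CR42862, which shares exon bases with a protein-coding gene, and CR31781. Without them, a sum added after the values were seen, the share was 0.242, 0.235 and 0.259% in controls and 0.251, 0.265 and 0.249% in overexpressing flies, and the groups overlapped. In FPKM, which weighs short genes more, the sums were 3744, 3727 and 3930 against 3935, 4082 and 3912, and the groups overlapped, since control replicate 3 exceeded overexpressing replicate 3.

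Between the groups 6 of the 164 lncRNA genes passed the threshold, CR43811 and CR43905 higher and CR40469, CR43417, CR43491 and CR43196 lower in the overexpressing flies. The test was limma on log2(FPKM + 1) over 12326 genes with a Benjamini-Hochberg adjusted p under 0.05. By the same test 2.22% of all genes tested passed, 0.844% higher and 1.38% lower. CR43811 reached the mean of 5 FPKM only through the overexpressing group, where it is high. Of the 79 genes with a mean of at least 10 FPKM, 5 passed, with CR43905 the 1 higher call and the other 4 lower. Changes were small for most of the group: 151 of the 164 had an absolute log2 change under 0.5, and 5 reached 1. The median log2 change was 0.03, with 93 genes above 0 and quartiles of -0.18 and 0.18. Over all genes tested the median was 0.00 with 50.7% above 0 and quartiles of -0.08 and 0.09. The libraries of the 2 groups did not overlap for 49 of the 164 (22 higher, 27 lower), against 20.7% of all genes tested (9.06% higher, 11.7% lower). An unadjusted p under 0.05 was found for 53 of the 164 and for 15.7% of all genes tested. Run on recovered reads, voom called 9 of the 164 (4 higher, 5 lower) and 3.44% of all genes (1.48% higher, 1.96% lower). The lncRNA genes with a mean under 5 FPKM that passed the filter on low values numbered 562, of which 3.74% passed the test, 2.67% higher and 1.07% lower. Of 8648 protein-coding genes with a mean of at least 5 FPKM, 2.46% passed.

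Replicates of one group agreed less well for these genes than for protein-coding genes of the same minimum level. The median SD of log2(FPKM + 1) within a group was 0.18 for the lncRNA genes and 0.09 for the protein-coding genes. Their median recovered reads were 100.5 to 115.5 per library, and counting error alone gives a median SD of 0.13, against 0.05 for the protein-coding genes. In 45 of the 164 the SD was over 2 times the counting SD.

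**Figure D2:**
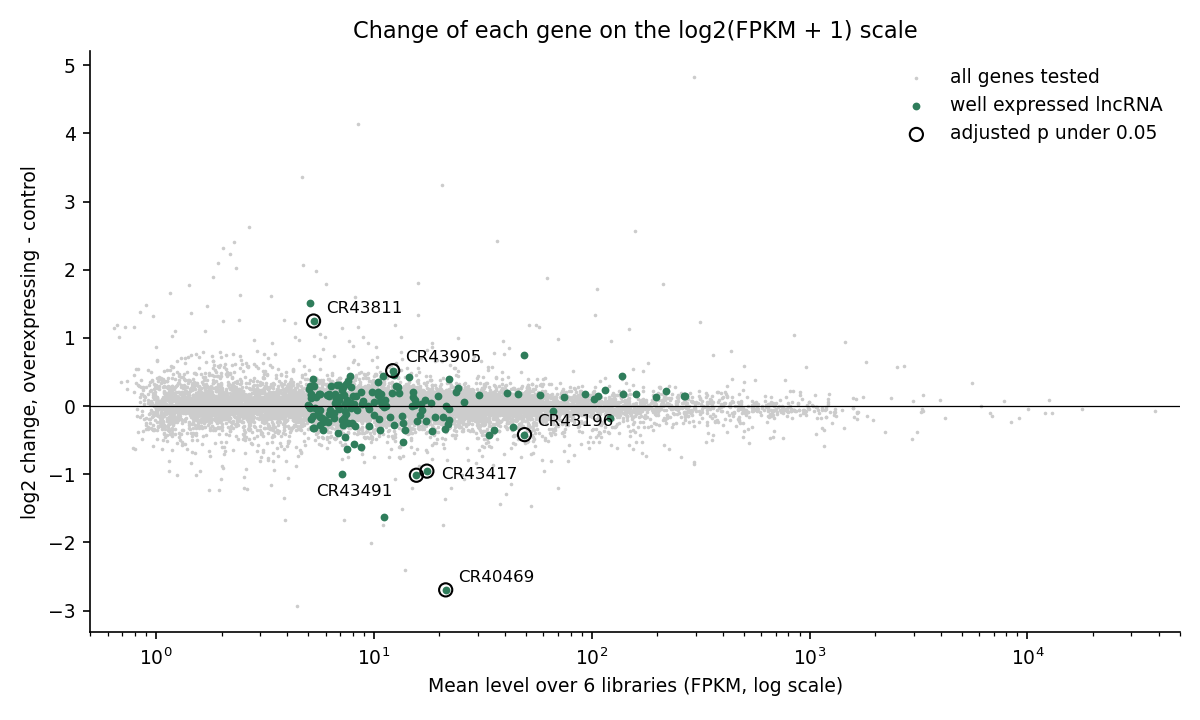
The log2 change (overexpressing minus control, on log2(FPKM + 1)) of every gene tested against its mean level (FPKM, log axis), with the 164 lncRNA genes in green and those with an adjusted p under 0.05 ringed. The ringed genes are CR43811 and CR43905 above 0 and CR43196, CR43417, CR43491 and CR40469 below.

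The largest change of the group was that of CR40469, an RNA of 214 nt near the tip of the X chromosome. CR40469 (FBgn0058469) lies at 122493 to 122706 on the plus strand of X, between genes. It stood at 38.9, 37.4 and 36.0 FPKM in controls and at 3.92, 8.62 and 3.40 FPKM in overexpressing flies. Every overexpressing library was far below every control library, and overexpressing replicate 2 was the highest of its group. The level fell 7.04-fold, from 37.4 ± 1.43 to 5.31 ± 2.87 FPKM (SD, n = 3 each), a log2 change of -2.70 ± 0.26 (SE; limma, adjusted p = 0.00334). Behind these values were 160, 153 and 135 recovered reads in control and 17, 37 and 13 in overexpressing libraries. CR40469 passed in all 6 fits that left out 1 library. Its nearest protein-coding gene, CG17636, lies 1664 bp away on the opposite strand and stood at 5.41 ± 0.280 and 5.76 ± 0.552 FPKM (log2 change 0.07, adjusted p = 0.747). Fewer cells of a type and less RNA per cell cannot be told apart in whole flies.

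The fall of CR43417 was smaller than that of CR40469 and also seen in all 3 overexpressing libraries. This gene of 3 exons and 1380 nt (FBgn0263336) lies on the minus strand of 2R at 16817519 to 16819240. Its levels were 25.2, 25.1 and 19.98 FPKM in control and 10.4, 12.1 and 12.2 FPKM in overexpressing libraries, with a wide gap between the groups. The mean fell 2.02-fold, with a log2 change of -0.95 ± 0.11 (SE; limma, adjusted p = 0.00599), and it passed in all 6 fits that left out 1 library. Of its exon bases 4.28% are shared with CG5550 on the opposite strand, whose values of 10.9 ± 3.56 and 9.37 ± 3.19 FPKM (SD, n = 3 each) had a log2 change of -0.19 (adjusted p = 0.817).

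CR43491, an RNA of a single exon (FBgn0263502, 629 nt), lies on the minus strand of X at 17378376 to 17379004. It stood at 21.2, 17.4 and 25.4 FPKM in control and 8.78, 12.4 and 8.98 FPKM in overexpressing libraries. The groups did not overlap, but the control libraries spread more than those of CR40469. The mean fell 2.12-fold, a log2 change of -1.01 ± 0.16 (SE; limma, adjusted p = 0.0233). The call was lost without overexpressing replicate 1 (adjusted p = 0.0867) or 3 (0.0857) and without control replicate 1 (0.085) or 3 (0.0774), and over all alternatives the adjusted p was 0.00842 to 0.0867. The nearest protein-coding gene, the homeobox gene B-H1, is 18474 bp away and stood at 0.673 ± 0.154 and 0.723 ± 0.119 FPKM, too low to be tested.

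CR43196 is the most abundant of the 6. It has 2 exons and 543 nt (FBgn0262825) on the minus strand of 3R at 17382129 to 17382767, inside lute, a BTB domain gene of the opposite strand. Its levels were 56.6, 60.0 and 52.5 FPKM in control and 43.8, 42.0 and 39.9 FPKM in overexpressing libraries, and every overexpressing library was below every control library. The fall was 1.35-fold, the smallest of the 6, with a log2 change of -0.42 ± 0.07 (SE; limma, adjusted p = 0.0236). The gene lute stood at 18.6 ± 0.717 and 17.3 ± 1.42 FPKM (log2 change -0.10, adjusted p = 0.559). CR43196 also lies inside a protein-coding gene of its own strand, whose values are not given here. The call on CR43196 was lost without overexpressing replicate 1 (adjusted p = 0.0612) or 3 (0.0889) and without control replicate 1 (0.0967) or 2 (0.089), with a range of 0.0162 to 0.0967 over all alternatives.

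The larger of the 2 rises was that of CR43811, a gene of 2 exons and 586 nt (FBgn0264359) on the plus strand of 2R at 13791946 to 13792587. Levels were 2.84, 2.59 and 2.73 FPKM in control and 7.74, 8.76 and 7.06 FPKM in overexpressing libraries. All 3 control libraries were under 3 FPKM and all 3 overexpressing libraries over 7 FPKM, so this gene reached the mean of 5 FPKM through the group in which it is high. The rise was 2.89-fold, a log2 change of 1.25 ± 0.09 (SE; limma, adjusted p = 0.00112), and it passed in all 6 fits that left out 1 library. Cpr50Cb, which encodes a cuticle protein, lies 2190 bp away on the same strand and stood at 0.470 ± 0.136 and 0.732 ± 0.0198 FPKM, too low to be tested.

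CR43905, a single exon of 1001 nt (FBgn0264506), lies on the minus strand of 2R at 6532595 to 6533595, inside jing, a zinc finger gene of the opposite strand. It stood at 9.35, 9.13 and 11.1 FPKM in control and 14.9, 14.9 and 13.8 FPKM in overexpressing libraries, and the groups did not overlap. The rise was 1.47-fold, a log2 change of 0.52 ± 0.08 (SE; limma, adjusted p = 0.0244). The levels of jing were 1.76 ± 0.202 and 1.80 ± 0.194 FPKM (log2 change 0.02, adjusted p = 0.952). Without overexpressing replicate 1 (adjusted p = 0.0944) or 3 (0.0659), and without control replicate 1 (0.0983) or 2 (0.0947), CR43905 did not pass, and the range over all alternatives was 0.0135 to 0.0983.

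**Figure D3:**
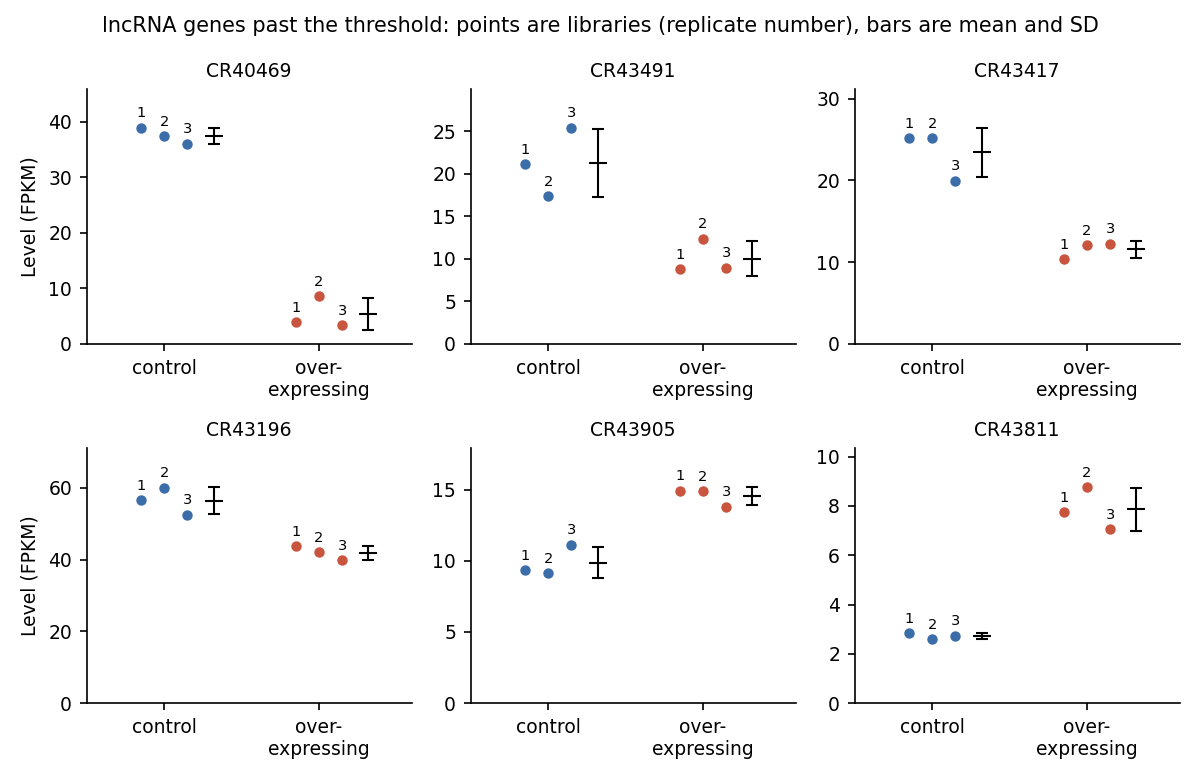
Level (FPKM, axes from 0) of the 6 lncRNA genes with an adjusted p under 0.05, in each control (blue) and overexpressing (red) library; numbers are replicates, and the black mark and bars are the mean and SD of 3 libraries. In all 6 the groups do not overlap, and the gap is widest for CR40469, from 37.4 ± 1.43 to 5.31 ± 2.87 FPKM.

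None of the 15 most abundant lncRNA genes passed the limma threshold. By unadjusted p under 0.05 there were 7 of them, beside 15.7% of all genes tested, and voom called 1, CR32652. Of the 15, 13 had a log2 change above 0, beside 50.7% of all genes tested. The libraries of the groups did not overlap for 6, of which 5 were higher, beside 20.7% of all genes tested (9.06% higher). CR31781 on 2L and CR42862 on 3L were the highest, at 268 and 266 FPKM over all libraries. CR31781 stood at 230.0, 272 and 264 FPKM in control and 269.7, 283 and 291 in overexpressing libraries, overlapping between groups (log2 change 0.14 ± 0.07, limma adjusted p = 0.405). CR42862 gave 238, 269 and 248 FPKM in control against 286, 256 and 296 FPKM in overexpressing libraries, also overlapping (log2 change 0.15 ± 0.07, adjusted p = 0.388). The order of the 2 differed by less than their spread between libraries. CR42862 shares exon bases with a protein-coding gene, so some of its reads may belong to that gene.

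The next in level was CR9284, a gene of 2 exons on 2R. It stood at 203, 189 and 211 FPKM in control and 241, 238 and 226 FPKM in overexpressing libraries, without overlap, at a log2 change of 0.22 ± 0.06 (adjusted p = 0.117). Next came CR32658 and, sixth, CR32657, both inside Ten-a, a teneurin gene of the X chromosome whose protein takes part in synaptic partner matching. CR32658 stood at 202, 171 and 191 against 209, 207 and 202 FPKM, and CR32657 at 131, 123 and 135 against 135, 154 and 153 FPKM. For both the overexpressing libraries lay just above the control libraries, with log2 changes of 0.13 and 0.18 (adjusted p = 0.394 and 0.247), while Ten-a itself had a log2 change of -0.10. CR44389, an RNA of 300 nt on 2R, ranked between them, with 138, 146 and 164 against 159, 177 and 173 FPKM and overlapping groups.

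The largest difference among the 15 was that of CR32652, a gene of 5 exons on X. Its levels were 116, 115 and 119 FPKM in control libraries, which lay close together, and 132, 179 and 170.1 FPKM in overexpressing libraries, all of them higher. Its log2 change came to 0.45 ± 0.11 (limma, adjusted p = 0.0979), and voom gave an adjusted p of 0.0219. Without overexpressing replicate 1, the lowest of its group, the limma adjusted p was 0.0113, and over all alternatives it was 0.0113 to 0.246. CR43994, inside rols, a gene of myoblast fusion, was the only one of the 15 with all overexpressing libraries lower, at 136, 120.2 and 128 against 109.9, 112 and 119.8 FPKM (log2 change -0.17 ± 0.06, adjusted p = 0.256). CR32661, CR43684, CR44455, CR32690, CR43239 and CR42767 had log2 changes between -0.08 and 0.23 and adjusted p of 0.164 or more.

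Among the members with a name of their own, noe and Hsromega had lower values in every overexpressing library without passing the threshold. The gene noe, an RNA of a single exon and 1077 nt on 3L inside blot and on its strand, stood at 51.4, 48.2 and 45.2 FPKM in control and 40.6, 39.2 and 37.0 FPKM in overexpressing libraries. Its log2 change was -0.30 ± 0.07 (SE; limma, adjusted p = 0.0693; 0.0505 by voom), and blot stood at 13.9 ± 0.817 and 15.6 ± 1.90 FPKM. Hsromega on 3R, with 21710 nt of annotated exon by far the longest of the 164, stood at 14.2, 14.5 and 15.8 FPKM in control and 12.3, 12.9 and 12.0 FPKM in overexpressing libraries. The groups did not overlap, and the log2 change of -0.24 ± 0.06 had a 95% interval of -0.39 to -0.09 (limma, adjusted p = 0.124). The annotation places the microRNA gene mir-4951 inside it. The values of mimi were 14.5, 16.0 and 14.3 against 16.9, 16.5 and 14.6 FPKM, and those of Yu 6.38, 8.19 and 8.66 against 8.65, 5.77 and 6.96 FPKM, with overlapping groups and adjusted p of 0.632 and 0.789.

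Genes linked to Hsromega were set beside it. Of 15 heat-inducible genes, 11 were tested, and 1 passed by limma (3 by voom), beside 2.22% of all genes tested by limma and 3.44% by voom. An unadjusted p under 0.05 was found for 5 of the 11 and for 15.7% of all genes tested. The 1 that passed by limma was Hsp70Bb, which encodes an Hsp70 chaperone and rose from 3.17 ± 0.883 to 38.0 ± 2.06 FPKM (limma, adjusted p = 0.0001); the near-identical copies of this gene can share reads. The median log2 change of the 11 was 0.06, with 7 above 0, beside 0.00 and 50.7% over all genes tested. Hsp83 and DnaJ-1 were lower, with log2 changes of -0.24 and -0.38 (limma, adjusted p = 0.148 and 0.0867). Hsf was higher, at 0.30 (adjusted p = 0.0875). The tested copies Hsp70Bbb, at 2.12 ± 0.574 and 1.77 ± 0.646 FPKM, and Hsp70Bc, at 1.91 ± 0.817 and 1.76 ± 0.754 FPKM, did not rise. Of 7 tested RNA-binding proteins known from omega speckles, 0 passed limma's test and 0 voom's or an unadjusted p under 0.05, and their median log2 change was -0.04. The 2 most abundant were Hrb98DE, at 88.9 ± 2.58 and 91.6 ± 2.55 FPKM, and Pep, at 73.0 ± 4.53 and 75.2 ± 6.77 FPKM.

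CR42491 on X is the only one of the 164 whose span holds a small nucleolar RNA on its strand, snoRNA:Psi18S-531, which by its name guides pseudouridylation of 18S rRNA. It stood at 24.0, 22.0 and 25.7 FPKM in control and 17.4, 20.9 and 20.8 FPKM in overexpressing libraries, without overlap (log2 change -0.27 ± 0.09, limma adjusted p = 0.201). CR42491 shares 50.5% of its exon bases with the ribosomal protein gene RpL22 on the same strand, so reads of the 2 genes cannot be told apart there, and RpL22 stood at 361 ± 5.87 and 357 ± 13.6 FPKM (log2 change -0.02). Of 5 tested core proteins of small nucleolar particles and 6 of nonsense-mediated decay, which degrades many spliced host transcripts, 0 passed limma's test and 0 an unadjusted p under 0.05 or voom's test. Over all genes tested the shares were 2.22% by limma, 15.7% by unadjusted p and 3.44% by voom. With so few genes, 0 calls by limma or voom is near these shares. Fib, the methyltransferase of box C/D particles, stood at 31.2 ± 4.53 and 29.7 ± 0.541 FPKM and NHP2, a protein of box H/ACA particles, at 18.8 ± 0.762 and 16.9 ± 2.08 FPKM. In the decay list Smg5 stood at 36.5 ± 1.73 and 39.2 ± 3.53 FPKM and Smg6 at 33.5 ± 1.82 and 34.9 ± 0.834 FPKM.

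For several lncRNA genes with large differences the call depended on 1 library or on the test. CR42861 on X stood at 18.8, 14.8 and 16.7 FPKM in control and 9.61, 2.72 and 3.77 FPKM in overexpressing libraries, so every overexpressing library was lower and replicate 1 lay nearest the controls. This is a log2 change of -1.63 ± 0.34 (limma, adjusted p = 0.062); voom gave 0.00912, and without overexpressing replicate 1 the limma value was 0.00213, with a range of 0.00213 to 0.188 over all alternatives. Its neighbour Pdcd4, named for a regulator of translation and 101 bp away, stood at 33.0 ± 1.46 and 33.6 ± 2.87 FPKM.

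CR43157, also on X, was higher in each overexpressing library, at 28.6, 37.9 and 42.4 FPKM in control and 48.3, 75.1 and 61.8 FPKM in overexpressing libraries. This is a log2 change of 0.75 ± 0.18 (limma, adjusted p = 0.101; 0.0319 by voom, and 0.0319 to 0.236 over all alternatives). On the same strand, 446 bp away, lies CR32661, which stood at 113, 97.9 and 108 against 121, 133 and 120.3 FPKM, also with every overexpressing library above every control library (log2 change 0.23 ± 0.07, adjusted p = 0.164).

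CR44138, inside CG9813 on 3R, was listed at 1.16, 2.23 and 1.62 FPKM in control and 13.7, 1.52 and 10.4 FPKM in overexpressing libraries. Replicates 1 and 3 were well above all controls and replicate 2 was among them, from 137, 15 and 92 recovered reads, so this gene too reached the mean of 5 FPKM through 1 group. The log2 change of 1.51 ± 0.59 did not pass (limma, adjusted p = 0.277), and without overexpressing replicate 2 the adjusted p was 0.00192, in a range of 0.00192 to 0.517 over all alternatives. CG9813, on the opposite strand, stood at 48.3 ± 1.54 and 48.4 ± 4.74 FPKM.

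CR32368, the thirteenth in level, was high in 1 library of each group, with 55.8, 98.1 and 57.4 FPKM in control and 114, 57.0 and 62.9 FPKM in overexpressing libraries. The groups overlapped, and the log2 change was 0.13 ± 0.30, with a 95% interval of -0.56 to 0.82 (adjusted p = 0.894). CR44688 on 3L stood at 6.22, 16.3 and 7.41 against 5.90, 2.93 and 3.86 FPKM, where control replicate 2 alone was high and the groups were just apart (log2 change -0.999 ± 0.34, adjusted p = 0.207). CR43825, inside the axon guidance family gene beat-Ic on 2L, stood at 8.07, 10.1 and 9.20 against 2.91, 7.44 and 7.47 FPKM, with overexpressing replicate 1 alone far below the rest (log2 change -0.62 ± 0.28, adjusted p = 0.343).

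**Figure D4:**
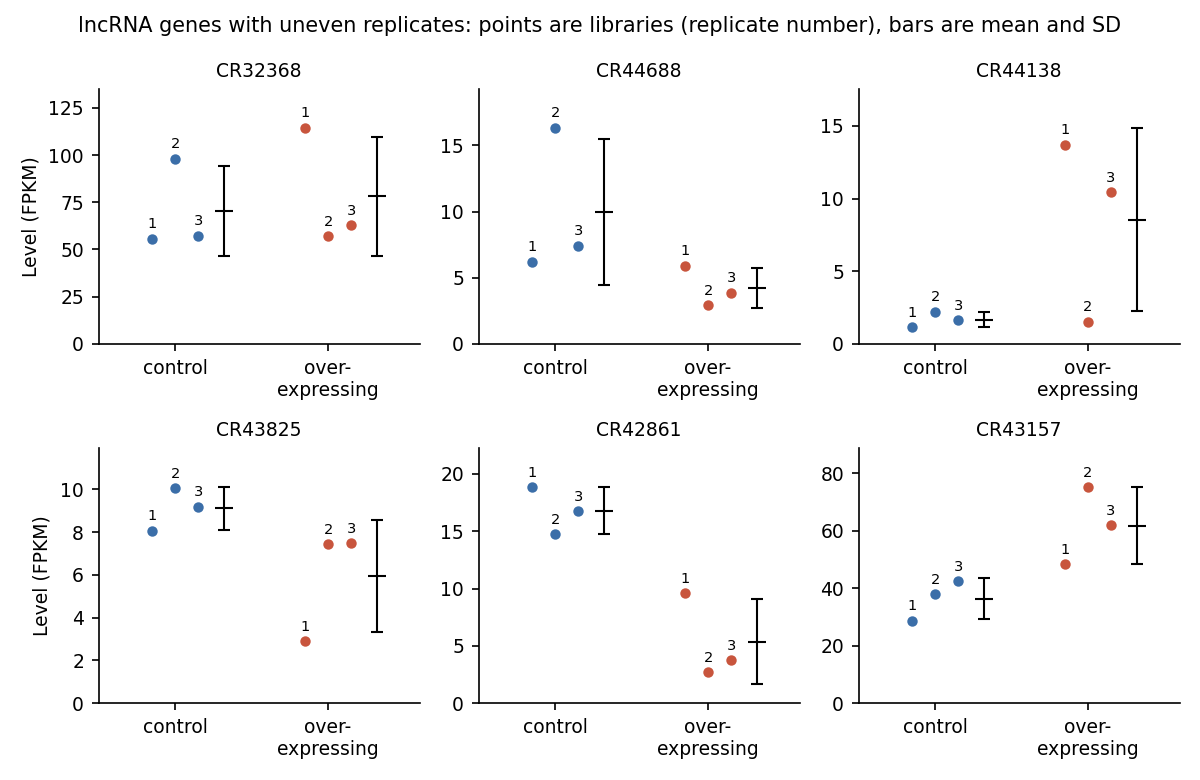
Level (FPKM, axes from 0) of 6 lncRNA genes with uneven replicates, in each control (blue) and overexpressing (red) library; numbers are replicates, and the black mark and bars are the mean and SD of 3 libraries. CR44138 is near the controls in overexpressing replicate 2 alone, CR43825 is low in overexpressing replicate 1 alone, and CR32368 is high in control replicate 2 and overexpressing replicate 1.

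Smaller differences without overlap were seen in other genes that did not pass. CR43937 inside Pde1c, a gene of cyclic nucleotide breakdown, stood at 18.0, 14.3 and 16.4 FPKM in control and 12.6, 8.79 and 11.7 FPKM in overexpressing libraries, and CR44761, which shares 3.59% of its exon bases with RYBP, a gene of the Polycomb system, at 7.26, 10.1 and 8.66 against 5.71, 5.77 and 6.59 FPKM. Their log2 changes were -0.52 and -0.45, with adjusted p of 0.115 and 0.109. CR42836 on 3R was higher, at 10.9, 8.14 and 11.9 FPKM in control and 15.4, 13.4 and 14.4 FPKM in overexpressing libraries (log2 change 0.46 ± 0.13, adjusted p = 0.138).

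Among the chromosome arms with more than 1 of these genes, the X had the highest median change. Of the 23 X-linked lncRNA genes, 16 had a log2 change above 0 and the median was 0.17, against 77 of 141 and 0.02 for the autosomal ones. All 1887 X-linked genes tested had a median of 0.00 with 50.4% above 0. These medians are a description. The 2 X-linked limma calls, CR40469 and CR43491, were both lower, beside 4.88% of all X-linked genes tested. By voom 5 X-linked lncRNA genes passed, beside 3.44% of all genes tested. These added CR32652 and CR43157, which were higher, and CR42861, which was lower. Among the 12 X-linked genes that ranked in the first 30 by level, a cut chosen after the values were seen, 11 were above 0, and CR42491 was the exception.

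Library by library the X-linked genes did not separate the groups. The median deviation of the 23 genes from their own mean, in log2, was 0.03, -0.16 and -0.00 in controls and 0.03, 0.13 and 0.04 in overexpressing flies. Control replicate 2 was low and overexpressing replicate 2 high, and the groups overlapped. Their summed level was 1034, 951 and 1060 FPKM in control and 1059, 1189 and 1113 FPKM in overexpressing libraries, which overlapped too. Over the alternatives the median change lay between 0.11, without control replicate 2, and 0.21, with voom. The voom medians of all genes tested and of all X-linked genes tested were each 0.03, beside 0.00 by limma on FPKM. Of the 48 X-linked lncRNA genes with a mean under 5 FPKM that were tested, 33 were above 0, with a median of 0.13.

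**Figure D5:**
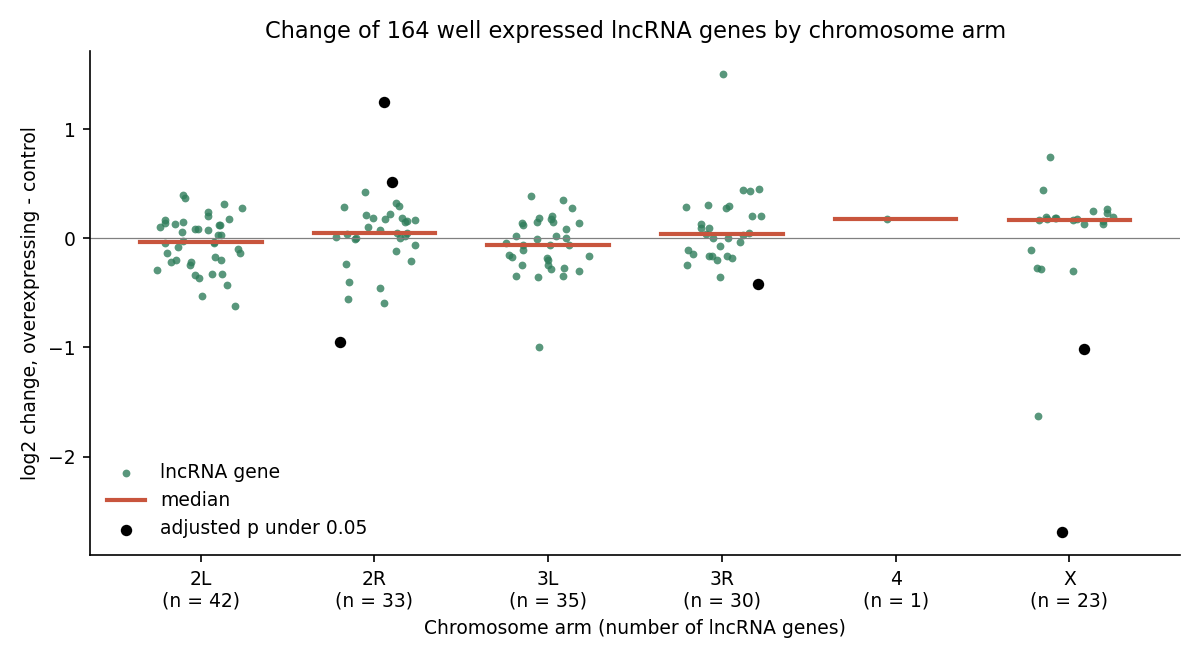
The log2 change (overexpressing minus control) of the 164 lncRNA genes by chromosome arm; each point is a gene, red lines are medians and black points have an adjusted p under 0.05. The X-linked genes have the median of 0.17 and also the lowest point, CR40469 at -2.70.

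Of the 164 genes, 20 share an exon base with another annotated gene, and the difference between these and the rest was not tested. The 20 genes had a median log2 change of -0.14, with 13 below 0, and the groups did not overlap for 11 of them, 10 lower and 1 higher. The 144 genes with no shared base had a median of 0.05, with 86 above 0, and 38 had groups without overlap, 21 higher and 17 lower. Over all genes tested 20.7% had groups without overlap, 9.06% higher and 11.7% lower. Leaving out the 20 left 5 calls. In CR45013, 56.8% of whose exon bases are shared with Pde1c on the other strand, levels were 34.9, 41.2 and 40.5 FPKM in control and 32.4, 26.0 and 27.8 FPKM in overexpressing libraries. These did not overlap (log2 change -0.42 ± 0.10, limma adjusted p = 0.081), while Pde1c stood at 6.30 ± 0.544 and 6.38 ± 0.163 FPKM. Inside coding genes, the 24 on the host's strand had a median of -0.01 and the 27 on the opposite strand one of 0.04. CR43196, inside coding genes on both strands, is in neither of these sets.

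The nearest or overlapping protein-coding gene was tested for 142 of the 164. In 74 of these pairs (52.1%) the lncRNA gene and its neighbour had changes of the same sign. Across these genes, which share the same libraries, Pearson's r was 0.02 and Spearman's rho 0.07, given as description. Of the 142 tested neighbours 1 passed the threshold, beside 2.22% of all genes tested. It was CG16756, 266 bp from CR45517 on X and lower at a log2 change of -1.14 (limma, adjusted p = 0.0220). No lncRNA gene passed together with its neighbour, and the neighbours of CR43491 and CR43811 were too low to be tested. CR45517 itself stood at 6.45, 5.06 and 4.35 FPKM in control and 6.12, 5.73 and 6.29 FPKM in overexpressing libraries, with overlapping groups (adjusted p = 0.555).

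Some of the genes lie beside each other: 8 pairs within 2000 bp, of which 5 diverge, 2 converge and 1 runs the same way. The limit of 2000 bp was set after the values were seen and uses positions only. In 4 of the 8 pairs both changes had the same sign. CR43792 and CR43793 on 2R converge with overlapping spans inside CG43795, and both were lower in every overexpressing library. Without the strand setting, reads from the overlap cannot be told apart, so the changes of CR43792 and CR43793 may not be separate. CR43792 stood at 11.9, 9.68 and 10.2 FPKM in control and 8.45, 6.25 and 5.57 FPKM in overexpressing libraries (log2 change -0.59 ± 0.14, limma adjusted p = 0.0895, and 0.0373 to 0.253 over all alternatives). CR43793 stood at 10.1, 8.88 and 10.6 against 5.55, 6.11 and 7.55 FPKM (log2 change -0.56 ± 0.11, adjusted p = 0.0535, and 0.0382 to 0.171 over all alternatives). The first passed without overexpressing replicate 1 (adjusted p = 0.0373) and the second without overexpressing replicate 3 (0.0382).

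Of the other pairs, 3 are given here, and differences within a pair were not tested. CR43278 and CR43279 diverge from starts 1267 bp apart on X. CR43278 stood at 21.6, 21.7 and 22.6 FPKM in control and 24.7, 28.9 and 26.4 FPKM in overexpressing libraries, all higher, and CR43279 at 5.68, 4.82 and 8.54 against 4.81, 4.67 and 5.31 FPKM, overlapping (log2 changes 0.27 and -0.28, adjusted p = 0.109 and 0.496). CR43239, at 70.1, 70.4 and 62.6 FPKM in control and 55.8, 83.9 and 56.3 FPKM in overexpressing libraries, peaked in overexpressing replicate 2. So did CR44345, which diverges from it 208 bp away, at 8.11, 8.40 and 7.32 against 7.32, 8.70 and 7.35 FPKM. CR43633 and CR43634, which diverge 426 bp apart on 3R, held nearly equal levels of 21.3 and 20.8 FPKM, and their adjusted p were 0.984 and 0.296.

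At the minimum level, the lowest 3 genes inside were CR44834, CR44419 and CR44200, with means of 5.06, 5.03 and 5.00 FPKM. The first 3 outside were CR32218, CR44971 and CR43263, with 4.997, 4.987 and 4.966 FPKM. Single libraries of the lowest gene, CR44200, gave 3.81, 6.62 and 4.57 FPKM in control and 5.42, 3.99 and 5.59 FPKM in overexpressing libraries, a spread wider than the distance to the minimum.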

How the data were processed

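RNA-seq was analysed from 3 control and 3 CR33942-overexpressing libraries of adult male flies, 12 h after infection. Per the labels' protocols, poly(A) RNA was selected on poly-T beads, and paired-end reads were mapped by HISAT2 2.0.5 and assigned to genes by featureCounts 1.5.0-p3. The submitters' processing notes name dm6 as the build. RNA without a poly(A) tail is underrepresented by this selection. The deposited table gives FPKM per gene and library; its derivation from counts by the authors, the annotation release and the strand setting are not given in the sources used here. Without the strand setting, reads of overlapping genes cannot be told apart.

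Symbols and coordinates came from Ensembl release 115 (BDGP6.54, dm6 coordinates), which held 17252 of the 17558 identifiers. limma 3.58.1 in R 4.3.3 (lmFit, eBayes with trend) was run on log2(FPKM + 1) for the 12326 genes that reached an FPKM of 1 in 3 or more of the 6 libraries, two-sided, with Benjamini-Hochberg adjustment over all of them at 0.05. All 164 genes passed this filter. Log2 changes are overexpressing minus control and understate changes of low genes; folds are ratios of mean FPKM. Whole reads were recovered from the FPKM steps for 96.0% of the 15918 genes above 0 (tolerance 0.01 of a read), and for 642 genes through a fitted length. They served for depth and for limma's voom, which called 424 genes. The scripts were tested on simulated data.

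The genes and lists were chosen with earlier results of these data known. Genes are named when they passed the test, were among the 15 most abundant, have a name of their own or hold a small RNA, were among the 10 largest differences without overlap or the 3 largest SDs, or lay at the minimum level. Also named are neighbours of these and up to 4 called, or else the 2 most abundant, genes of each list. The pairs, defined by a distance set after the values were seen, and CR45013, CR45517 and CR43278 were chosen after the values were seen. Of 4 lncRNAs reported in immunity (CR11538, CR46018, VINR, CR44404) none was analysed here. Alternatives were other pseudocounts, filters, scalings, voom, a replicate block, other minimum levels and leaving out each library. Sequences were not used here. Depth limits the group: recovered reads per gene were at least 11 and at most 31815 in a library.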

Additional observations from a re-analysis of the deposited data

How the results depend on the processing

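The 6 calls held under both other pseudocounts, both other filters, both other scalings, voom and the omission of overexpressing replicate 2. With voom 9 of the 164 passed (4 higher) and 424 of all genes. Of the 391 lncRNA genes tested with a mean of at least 2 FPKM 16 passed (8 higher, 8 lower), and of the 79 with at least 10 FPKM 5 passed (1 higher, 4 lower), beside 2.22% of all genes. Leaving out 1 library gave 3 to 9 calls (1 to 3 higher, 2 to 6 lower) among the 164, with 3 without control replicate 1. Over all genes it gave 103, 459 and 124 without overexpressing replicate 1, 2 and 3, and 88, 72 and 125 without control replicate 1, 2 and 3. CR40469, CR43417 and CR43811 passed in all of these fits, while CR43461, CR43715 and CR44138 passed only without overexpressing replicate 2 and CR46040 only without control replicate 3. The median change over the 164 genes, 0.03, ran from -0.00 (without control replicate 1) to 0.07 (voom). The voom median over all genes tested was 0.03, beside 0.00 by limma on FPKM. Deviations from the group means correlated at -0.05, -0.18 and 0.03 between libraries of the same number, and at -0.12 to 0.17 between the others. With 3 libraries per group these values cannot decide whether equal numbers mark paired samples. Replicate 3 had the fewest reads in both groups, 17032191 in control and 17368606 in overexpressing. With a replicate block 5 of the 164 passed, 3 of them shared with the 6, and 110 of all genes, beside 274 without it. The block lost CR43196, CR43491 and CR43905. For the named genes no alternative reversed a direction that passed the threshold; 518 values kept their side of it, 15 lost it and 13 gained it. The causes were not tested. With a median of 100.5 to 115.5 reads per gene and library, depth limits which small differences could be detected.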
